A study of Bos taurus with 12 samples.

Results

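The genes described here are 45 members of the vesicle trafficking families that were measured in the peripheral white blood cells (PWBCs) of beef heifers. They were chosen by name. A gene was a member when its symbol began with RAB, VPS, SNX, STX, VAMP, COPB, COPG or TRAPPC, or with SEC, ARF or ARL followed by a digit, and when it had at least 10 counts in at least 6 of the 12 libraries. The symbols came from the supplementary tables of the study, which name 2930 of the 27607 genes counted, so the list holds the named part of each family and not whole families. All 45 named genes with such a symbol met the count rule. Of the 45, 41 were named because they appear in co-expression tables built on these same heifers, 4 because they appear in a protein table, and 1 of the 45, RAB27B, also appears in the table of differing genes. How the members vary together is therefore not independent of how they came to be listed.

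The study asked which transcripts in PWBCs differ before breeding between heifers that later conceive and heifers that do not. All 12 animals were Simmental-Angus crosses, and both groups went through the same synchronization with GnRH, an intravaginal progesterone device and prostaglandin F2α, followed by artificial insemination (AI) with semen of a single Angus sire. The fertile group (6 heifers, labelled Pregnant) conceived to that AI. The subfertile group (6 heifers, labelled Open) conceived neither to AI nor to bulls, which joined the heifers 14 days after AI for a natural service period of 60 days. Blood was taken 2 days before AI, and 1 poly(A) library was made per heifer. The reproductive tract score, a grade of pubertal development, was 4 in 5 heifers and 5 in 1 heifer of each group, and no treatment separated the groups. The groups were named after the outcome, and heifers are numbered here by order within their group, so the numbers pair nothing.

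Vesicle trafficking moves proteins and lipids between the compartments of a cell. Coat proteins bud a vesicle from one membrane, RAB and ARL GTPases and tethers direct it to another, and SNAREs fuse the membranes. Retromer, retriever and sorting nexins return cargo from endosomes, and ESCRT complexes sort cargo into the lumen of endosomes that are bound for lysosomes. In blood cells the same machinery builds and releases granules: cytotoxic granules in lymphocytes, and alpha and dense granules in platelets.

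The libraries held between 14010736 and 21278761 counts on genes (median 17308038). The members took between 0.281% and 0.335% of the counts in 11 libraries and 0.470% in fertile heifer 6 (LM1330). Levels are given as CPM (counts scaled to a common library total) on TMM-scaled library sizes, are not divided by gene length and are therefore not compared between genes. Differences are given as log2FC of subfertile against fertile heifers from edgeR's quasi-likelihood test, and a gene was called when its unadjusted P was 0.05 or less and its absolute log2FC was 0.5 or more. The leukocyte label was checked against marker lists, of which only part is named in the tables. The summed CPM of 4 of 8 T cell genes ranged from 694 to 1271 in fertile and from 603 to 1017 in subfertile heifers, and that of 2 of 7 B cell genes from 367 to 750 and from 395 to 714. The corresponding ranges were 58.0 to 137 and 60.5 to 149 for 4 of 8 monocyte genes, 21.7 to 155 and 52.0 to 215 for 2 of 10 neutrophil genes, 66.7 to 141 and 67.3 to 108 for 1 of 6 NK cell genes, and 264 to 453 and 361 to 710 for 2 of 4 plasma cell genes. None of 9 erythroid genes is named, so none was measured here.

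None of the members was called by edgeR over all 12 heifers, and DESeq2 called 1. With edgeR, 0 of 45 members passed both thresholds, while 182 of 13012 genes tested did (1.4%), 86 higher (0.661%) and 96 lower (0.738%) in subfertile heifers, and 1 member, VPS33B, had an unadjusted P of 0.05 or less against 341 genes (2.62%). With P spread evenly between 0 and 1, 650.6 of the 13012 genes would have had such a P, more than were found. DESeq2 called 1 member, RAB27B, and 230 genes (1.77%), and voom with limma called 0 members and 143 genes (1.1%). Without fertile heifer 6, edgeR called 0 members and 118 genes, and 0 members had an unadjusted P of 0.05 or less, against 191 of 13175 genes. It called 2, RAB27B and SEC14L5, without fertile heifer 1 or 4, RAB27B alone without subfertile heifer 2 and SEC14L5 alone without subfertile heifer 4. Over all genes, these 4 fits called 365 of 13163, 219 of 13137, 201 of 13174 and 245 of 13189, in that order. RAB27B was also called over all 12 heifers with RLE size factors, with library size alone and with every gene of at least 1 count kept. Those fits called 181 of 13012, 185 of 13012 and 624 of 19434 genes. After Benjamini-Hochberg adjustment over all genes tested, no gene had an edgeR adjusted P of 0.05 or less, and the adjusted P of each member was 0.9998. The CPM ranges of the groups overlapped for every member, while they did not overlap for 16 genes (0.123%).

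The members lay on both sides of no difference. In the edgeR fit 22 had a higher and 23 a lower level in subfertile heifers, and their median log2FC was -0.01, beside 0.01 over all genes tested. Of all genes tested, 51.8% were higher in that fit. Without fertile heifer 6, 32 of the 45 members were higher and their median was 0.03, beside 0.0055 over all genes tested. The share of all genes that were higher in that fit was not computed. Members also vary together, so their signs are not independent. The absolute log2FC was under 0.25 for 41 members and at least 0.5 for 3, RAB27A, RAB27B and SEC14L5, each of them lower in subfertile heifers. Among all genes tested, 963 (7.4%) reached 0.5 in either direction. The 95% interval lay within -0.5 and 0.5 for 31 members, so for these a difference of that size in either direction is outside the interval. For the others the interval reached past 0.5 in at least 1 direction.

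**Figure D1:**
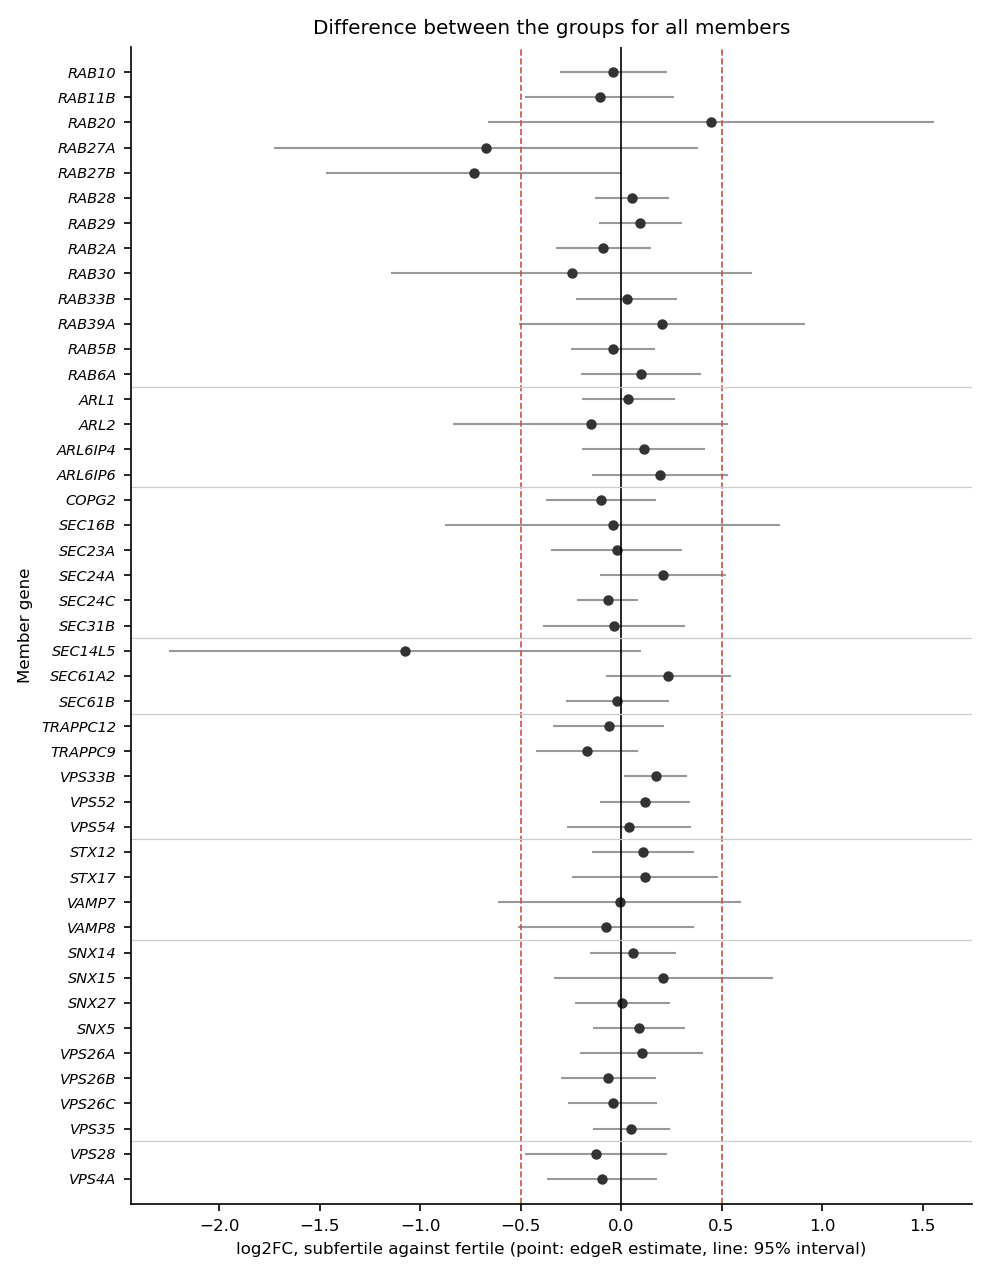
Log2FC of subfertile against fertile heifers for the 45 members, ordered by role, with the edgeR estimate as a point and its 95% interval as a line; dashed lines mark the call threshold of 0.5 in each direction. Estimates of 41 members lie within 0.25 of 0, and the intervals of RAB27A, RAB27B and SEC14L5 are wide and include 0.

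The RAB GTPases, which mark membranes and recruit the proteins that move and tether vesicles, had 13 members. Of these, 6 were higher and 7 lower in subfertile heifers, 0 were called by edgeR and 0 had an unadjusted P of 0.05 or less (P from 0.0503 to 0.822), and their median log2FC was -0.04. Without fertile heifer 6, 10 were higher and 3 lower. The widest differences were those of the paralogues RAB27A and RAB27B, which drive the docking and release of secretory granules, in cytotoxic lymphocytes (RAB27A) and in platelets (both).

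RAB27B was measured at 5.97, 16.2 and 33.2 CPM (lowest, median, highest) in fertile heifers and at 6.52, 9.90 and 12.4 CPM in subfertile heifers. All 6 subfertile heifers lay below the fertile median, but fertile heifers 1 and 4, at 5.97 and 7.76 CPM, lay among the lowest subfertile animals, and fertile heifer 6 stood above the rest. The group means were 16.2 ± 9.68 and 9.74 ± 2.37 CPM (SD, n = 6 each). The log2FC was -0.73 (SE 0.34, 95% interval -1.47 to 0.0011, edgeR P = 0.0503, adjusted P = 0.9998), and the two-sided exact permutation test gave P = 0.203. With DESeq2, which called the gene, the log2FC was -0.74 (SE 0.34, adjusted P = 0.9998), and with voom, which did not, it was -0.54. The edgeR log2FC was -0.39 without fertile heifer 6. It passed both thresholds without fertile heifer 1 (-0.91), without fertile heifer 4 (-0.88) and without subfertile heifer 2 (-0.81).

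RAB27A stood at 147, 467 and 2083 CPM in fertile heifers and at 167, 454 and 671 CPM in subfertile heifers. The medians of the groups were close, and a single animal, fertile heifer 6, was far above the other 11. Fertile heifer 1 and subfertile heifer 1 were the lowest of their groups. The means were 693 ± 695 and 435 ± 167 CPM (SD, n = 6 each), and without fertile heifer 6 the fertile mean was 415 ± 154 CPM (n = 5). The log2FC of -0.67 (SE 0.49, edgeR P = 0.194, exact permutation P = 0.608) became 0.06 without that heifer, and with voom it was -0.33 over all 12. RAB27A took from 5.42% to 20.2% of the members' summed CPM in the other 11 heifers and 43.2% in fertile heifer 6. The members' summed CPM was 3321 ± 755 in fertile and 3084 ± 165 in subfertile heifers, and 2628 ± 97.6 and 2648 ± 32.1 once RAB27A was left out (SD, n = 6 each).

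The other 11 RAB genes had edgeR log2FC between -0.25 and 0.45. The endosomal and recycling genes RAB5B (early endosomes), RAB11B (recycling endosomes) and RAB10 (delivery to the cell surface) had log2FC of -0.04, -0.11 and -0.04, and without fertile heifer 6 RAB5B and RAB11B turned to 0.0089 and 0.016. The Golgi genes RAB2A, RAB6A, RAB30 and RAB33B had -0.09, 0.10, -0.25 and 0.03. RAB2A stood at 127 CPM in fertile heifer 6, far above the other fertile heifers, and had 0.024 without it. RAB20 had the highest value of the family, 0.45, with an SE of 0.52 and an exact permutation P of 0.229. It was lowest of the 12 in fertile heifer 6 (0.12 CPM). The fertile mean of RAB20 was 1.02 CPM over 6 heifers and 1.20 CPM without that heifer, beside 1.38 CPM in subfertile heifers. With voom RAB20 had 0.82, RAB30 -0.45 and RAB39A 0.094, the last against 0.20 with edgeR. The counts of RAB20 were 2 to 36 per library, and those of RAB30 (9 to 78) and RAB39A (13 to 99) were also low, so counting error weighs most on these genes.

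Among the 4 ARL genes 3 were higher and 1 lower, with log2FC between -0.15 and 0.19 and no edgeR P below 0.244. ARL1 acts at the trans-Golgi and ARL2 in tubulin folding, whereas ARL6IP4 and ARL6IP6 are proteins named for binding ARL6 and are not GTPases. ARL6IP6 had the smallest P of the 4. It was measured at 37.0, 40.1 and 57.0 CPM in fertile and at 34.3, 49.2 and 64.8 CPM in subfertile heifers. Subfertile heifers 1 and 3 were above every fertile heifer and subfertile heifer 5 was below all of them, so the groups overlapped on both sides. The log2FC was 0.19 (SE 0.16, edgeR P = 0.244, exact permutation P = 0.325), from 0.099 without subfertile heifer 3 to 0.29 without fertile heifer 1. For ARL2, which ranged from 7.41 to 27.9 CPM over the 12 heifers, the log2FC was -0.15 (SE 0.32), and 0.074 without fertile heifer 6.

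The coat genes comprised COPG2, a subunit of the COPI coat that returns vesicles to the endoplasmic reticulum (ER), and 5 genes of the COPII coat that buds vesicles from it. Of the 6, 1 was higher and 5 lower, with log2FC between -0.10 and 0.21 and no edgeR P below 0.174; SEC16B, which marks ER exit sites, changed sign from -0.04 to 0.07 with voom. Without fertile heifer 6, 4 were higher and 2 lower: COPG2, which stood at 94.5 CPM in that heifer against a mean of 58.6 CPM in the other 5 fertile heifers, went from -0.10 to 0.036, and SEC16B (0.047) and SEC31B (0.032) also turned. SEC24A and SEC24C are cargo-binding subunits of COPII. SEC24A, the gene of this role with the smallest P, was measured at 53.9, 59.3 and 81.3 CPM in fertile and at 49.2, 73.6 and 94.5 CPM in subfertile heifers. The lowest and the highest of all 12 values were both from subfertile heifers, 5 and 1. The log2FC was 0.21 (SE 0.15, edgeR P = 0.174, exact permutation P = 0.247), and it ranged from 0.12 without subfertile heifer 1 to 0.30 without subfertile heifer 5.

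SEC24C varied least of all members, with a within-group SD of 0.08 on the log2 CPM scale. It was measured at 122, 127 and 130 CPM in fertile and at 111, 118 and 132 CPM in subfertile heifers. The fertile heifers lay close together, 4 subfertile heifers lay below all of them and 2 above all of them. The log2FC was -0.07 (SE 0.07, 95% interval -0.22 to 0.08, edgeR P = 0.352, exact permutation P = 0.139).

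SEC61A2 and SEC61B encode subunits of the ER channel through which new proteins enter the secretory pathway, and SEC14L5 a lipid-binding protein of the SEC14 family. SEC61A2 was measured at 43.0, 57.9 and 84.1 CPM in fertile and at 57.8, 71.1 and 82.3 CPM in subfertile heifers. Of the subfertile heifers 5 lay above the fertile median, while both the highest and the lowest value of the 12 were from fertile heifers, 1 and 6. The log2FC was 0.24 (SE 0.14, edgeR P = 0.125, exact permutation P = 0.136). It was 0.36 without fertile heifer 1 and 0.15 without fertile heifer 6. SEC61B had a log2FC of -0.02 (SE 0.12), and 0.024 without fertile heifer 6.

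SEC14L5 was measured at 3.91, 19.2 and 49.7 CPM in fertile and at 2.80, 10.6 and 17.3 CPM in subfertile heifers. All 6 subfertile heifers lay below the fertile median, fertile heifers 1 and 4 were as low as the lower subfertile animals, and fertile heifer 6 was again the highest of the 12. The means were 20.1 ± 16.5 and 9.55 ± 5.21 CPM (SD, n = 6 each). The log2FC of -1.07 (SE 0.55, 95% interval -2.25 to 0.10, edgeR P = 0.0695, exact permutation P = 0.247) was the widest of any member, and SEC14L5 also had the widest within-group SD, 1.16. Without fertile heifer 6 the log2FC was -0.57. Without fertile heifer 1 or 4 or subfertile heifer 4 it passed both thresholds, at -1.29, -1.27 and -1.33.

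**Figure D2:**
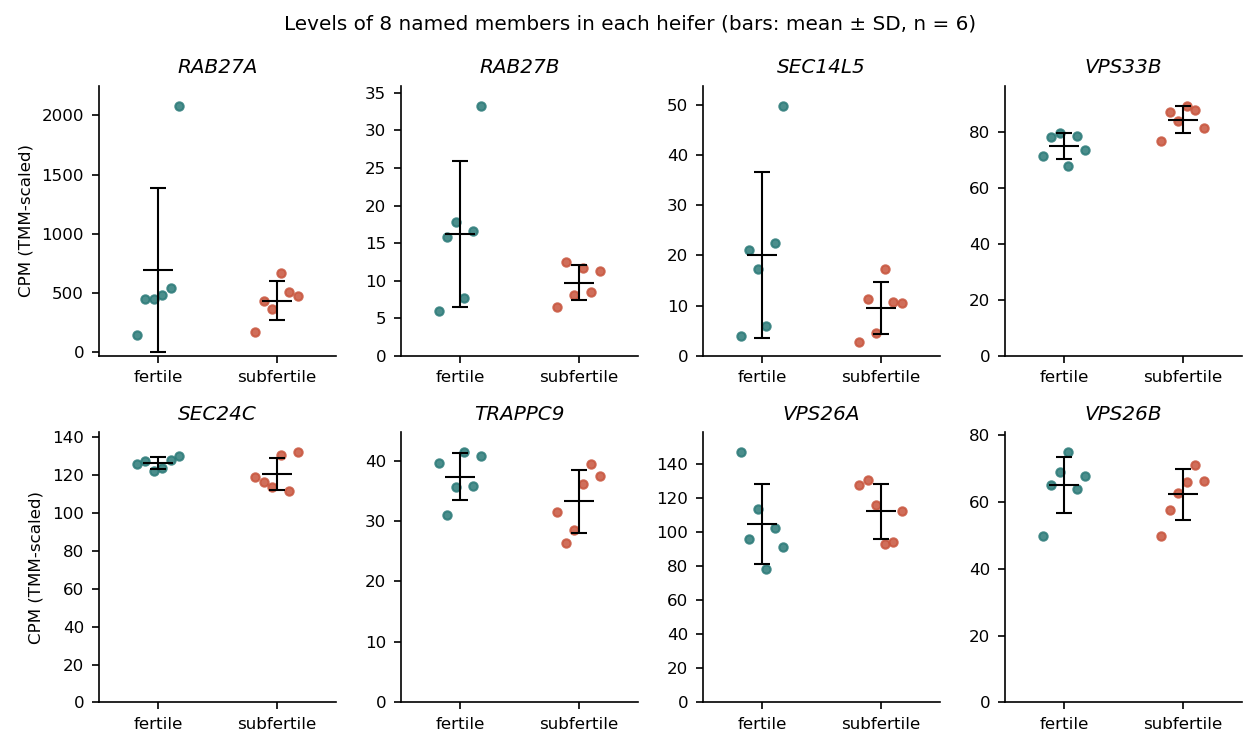
CPM of 8 named members in each heifer (points, in heifer order from left to right within a group), with the mean and SD of the 6 heifers of each group as bars. Fertile heifer 6, the rightmost fertile point, stands far above the other heifers for RAB27A (2083 CPM), RAB27B (33.2 CPM) and SEC14L5 (49.7 CPM), while for VPS33B 5 of the 6 subfertile heifers lie above every fertile heifer.

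The tethers, which hold an arriving vesicle at its target membrane, had 5 members, 3 higher and 2 lower. VPS33B, a Sec1/Munc18 protein that pairs with VIPAS39 and is needed for platelet alpha granules, was the member with the smallest P. It was measured at 67.8, 75.9 and 79.5 CPM in fertile and at 76.5, 85.4 and 89.1 CPM in subfertile heifers. Of the subfertile heifers 5 lay above every fertile heifer, and subfertile heifer 1 lay inside the fertile range. The means were 74.8 ± 4.70 and 84.3 ± 4.77 CPM (SD, n = 6 each). The log2FC was 0.17 (SE 0.07, 95% interval 0.02 to 0.33, edgeR P = 0.0334, adjusted P = 0.9998), and the exact permutation P was 0.0108, where 0.00216 is the smallest this design allows. With each heifer left out in turn the log2FC stayed between 0.15 and 0.20, the edgeR P was between 0.017 and 0.08, and 6 of the 12 fits had a P of 0.05 or less. The P was above 0.05 without fertile heifer 1, 4 or 6 and without subfertile heifer 2, 4 or 5. The unadjusted P was below 0.05 over all 12 heifers, but the groups overlapped. The difference was below the call threshold of 0.5 and did not pass adjustment over all genes. An unadjusted P of 0.05 or less was found for 1 of the 45 members, beside 2.62% of all genes tested.

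VPS52 and VPS54 are subunits of GARP, the tether that receives vesicles from endosomes at the trans-Golgi, and TRAPPC9 and TRAPPC12 belong to TRAPP complexes, which tether vesicles and activate RAB proteins. TRAPPC9 was measured at 31.0, 37.7 and 41.3 CPM in fertile and at 26.4, 33.8 and 39.5 CPM in subfertile heifers. Subfertile heifers 2 and 3 were below every fertile heifer and 1 of the 6 was above the fertile median, so most of the ranges overlapped. The log2FC was -0.17 (SE 0.12, edgeR P = 0.176, exact permutation P = 0.160), and -0.11 without subfertile heifer 2. VPS52 was measured at 131, 184 and 199 CPM in fertile and at 180, 186 and 216 CPM in subfertile heifers. The low fertile value was that of fertile heifer 6, and the log2FC of 0.12 (SE 0.10, edgeR P = 0.266, exact permutation P = 0.247) was 0.05 without it. Its GARP partner VPS54 had a log2FC of 0.04 (SE 0.14).

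The 4 SNAREs, the proteins that fuse membranes, were 2 higher and 2 lower, with no edgeR P below 0.373; VAMP7 (log2FC -0.01) had the opposite sign, 0.01, when library size alone was used for scaling, and 0.038 without fertile heifer 6. STX12, a syntaxin of recycling endosomes, was measured at 51.3, 62.3 and 67.8 CPM in fertile and at 49.6, 63.8 and 80.1 CPM in subfertile heifers. Subfertile heifers 1 and 3 were above all fertile heifers, and subfertile heifer 4 was the lowest of the 12. The log2FC was 0.11 (SE 0.12, edgeR P = 0.373, exact permutation P = 0.424), from 0.04 without subfertile heifer 1 to 0.18 without subfertile heifer 4. STX17, the syntaxin of autophagosomes that fuse with lysosomes, was measured at 9.79, 13.7 and 17.1 CPM in fertile and at 12.3, 14.6 and 18.9 CPM in subfertile heifers. The groups overlapped over most of their range, and the log2FC was 0.12 (SE 0.17, edgeR P = 0.496, exact permutation P = 0.439), from 0.036 without subfertile heifer 1 and 0.039 without fertile heifer 4 to 0.19 without fertile heifer 2. VAMP8, which serves granule release in platelets and other blood cells, had a log2FC of -0.07 (SE 0.20) and ranged from 53.9 to 134 CPM over the 12 heifers.

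The retromer, retriever and sorting nexin genes were 8, with 6 higher and 2 lower, log2FC between -0.06 and 0.21 and no edgeR P below 0.420; with voom SNX27 changed sign from 0.01 to -0.01. VPS35 is the backbone of retromer, VPS26A and VPS26B are its alternative arrestin-like subunits, and VPS26C takes that place in retriever. VPS35 was measured at 84.9, 88.7 and 101 CPM in fertile and at 83.5, 91.9 and 108.8 CPM in subfertile heifers, with a log2FC of 0.05 (SE 0.09, 95% interval -0.14 to 0.24) that ranged from 0.0089 without subfertile heifer 1 to 0.087 without subfertile heifer 5. VPS26A was measured at 78.2, 99.3 and 147 CPM and at 92.7, 114 and 131 CPM (log2FC 0.10, SE 0.14, exact permutation P = 0.457), and its log2FC ranged from 0.031 without fertile heifer 4 to 0.22 without fertile heifer 1. VPS26B was measured at 49.8, 66.4 and 74.8 CPM and at 49.8, 64.4 and 71.0 CPM (log2FC -0.06, SE 0.11, exact permutation P = 0.580), and its log2FC ranged from -0.13 without fertile heifer 1 to -0.0066 without subfertile heifer 1.

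The alternative subunits were arranged in opposite order across heifers. Fertile heifer 1 had the highest VPS26A value of the 12 and the lowest VPS26B value, and fertile heifer 4 had the lowest VPS26A and the highest VPS26B value. Across the 12 heifers Pearson's r of their log2 CPM was -0.86 (Spearman's rho -0.80), and -0.85 without fertile heifer 6. VPS35 went with VPS26A (r = 0.63, rho 0.73) and against VPS26B (r = -0.71, rho -0.71). The opposite order was not particular to these subunits. Both followed the main axis of all members given below (r = -0.81 for VPS26A and 0.88 for VPS26B). Other pairs of members opposed more strongly, such as SEC61B with SNX14 (r = -0.93) and VAMP8 with VPS54 (r = -0.90). These are descriptions over 12 libraries that share composition and depth, from genes listed partly for co-expression, and no test was made of them. VPS26C was measured at 36.6, 39.7 and 49.5 CPM in fertile and at 33.3, 40.1 and 46.0 CPM in subfertile heifers, with a log2FC of -0.04 (SE 0.10) that turned to 0.019 without fertile heifer 5 and 0.0035 without subfertile heifer 1 and was -0.089 without subfertile heifer 3, and with r of -0.24 with VPS26A and 0.30 with VPS26B.

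Of the sorting nexins, SNX5, which works with retromer in returning receptors to the Golgi, was measured at 96.4, 100.0 and 124 CPM in fertile and at 97.4, 107 and 147 CPM in subfertile heifers. Subfertile heifer 3 was above all others, and the log2FC of 0.09 (SE 0.11, edgeR P = 0.420, exact permutation P = 0.506) was -0.01 without it. SNX27, which recycles receptors to the cell surface with retromer, had 0.01, and SNX14 and SNX15 had 0.06 and 0.21 (SE 0.10 and 0.25). SNX14 and SNX15 were lowest of the 12 in fertile heifer 6 (59.9 and 3.20 CPM). Their fertile means were 72.6 and 5.60 CPM over 6 heifers, and 75.2 and 6.08 CPM without that heifer. The subfertile means were 75.7 and 6.48 CPM.

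The 2 ESCRT genes were both lower. VPS28 is a subunit of ESCRT-I, and VPS4A is the ATPase that takes ESCRT-III filaments apart. VPS28 was measured at 101, 148 and 170 CPM in fertile and at 93.0, 133 and 177 CPM in subfertile heifers, so that the lowest and the highest value were both from subfertile heifers, 1 and 5. The log2FC was -0.12 (SE 0.17, edgeR P = 0.464, exact permutation P = 0.478), from -0.22 without subfertile heifer 5 to -0.04 without subfertile heifer 1. That of VPS4A was -0.09 (SE 0.13, exact permutation P = 0.489).

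Other genes of the pathway were taken from a list of 98 adaptor, clathrin, COPI, exocyst, COG, ESCRT, SNARE, synaptotagmin-like and sorting receptor genes, of which 21 are named in the tables and all 21 were tested. With edgeR, 9 were higher and 12 lower in subfertile heifers, 0 were called and 0 had an unadjusted P of 0.05 or less, and DESeq2 and voom also called 0. Their median log2FC was -0.05, with a range from -0.20 (CHMP1A, of ESCRT-III) to 0.19 (COG3, of the Golgi tether COG). The smallest P was that of AP2B1, a subunit of the clathrin adaptor AP-2, at 151 ± 13.6 CPM in fertile and 133 ± 10.2 CPM in subfertile heifers (SD, n = 6 each), with a log2FC of -0.18 (SE 0.08, edgeR adjusted P = 0.9998).

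The spread between heifers of one group differed widely among members. The median within-group SD of log2 CPM was 0.25 for the members and 0.30 for all genes tested, and 32 members were below the latter. An SD above 0.5 was found for 8 members, SEC14L5, RAB27A, RAB20, RAB30, RAB27B, ARL2, RAB39A and SEC16B, and for 25.0% of all genes tested. RAB20, RAB30, RAB39A and SEC16B are low-count genes. RAB27A, with at least 2793 counts in every library and an SD of 0.99, is not. At the other end were SEC24C (0.08) and VPS33B (0.09).

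**Figure D3:**
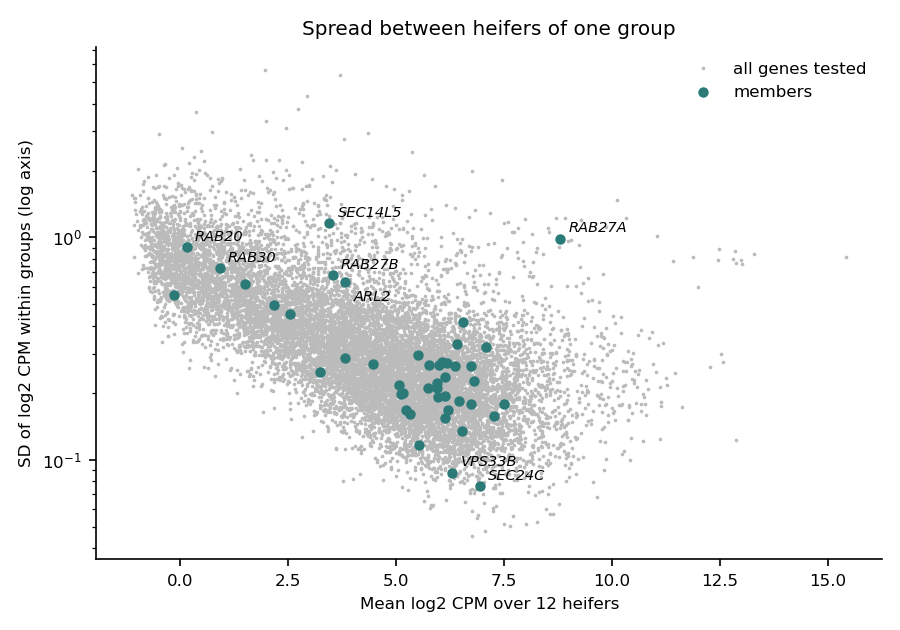
Within-group SD of log2 CPM (log axis) against mean log2 CPM over the 12 heifers, for all 13012 genes tested (grey) and the 45 members (green). RAB27A and SEC14L5 lie above most genes of similar mean, while SEC24C and VPS33B lie near the lower edge.

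Platelet transcripts were highest in fertile heifer 6, as were RAB27A, RAB27B and SEC14L5. So were the T cell sum (1271 CPM) and PRF1, the perforin gene of cytotoxic lymphocytes (141 CPM). Of 14 platelet marker genes, 5 are named and were measured: ITGA2B, ITGB3 and GP9 (surface receptors of platelets), TUBB1 (their tubulin) and SELP (P-selectin of alpha granules). None of the 5 was at 0 in any library. Their summed CPM was 541, 2468 and 10000.6 (lowest, median, highest) in fertile and 536, 1438 and 3191 in subfertile heifers. Fertile heifer 6 was the highest, and fertile heifer 1 and subfertile heifer 1 were the lowest. All 5 were lower in subfertile heifers, with log2FC between -0.34 and -1.22 and edgeR P between 0.0874 and 0.259, so none passed the threshold. These differences rested on fertile heifer 6: without it the log2FC was 0.011 for ITGA2B, -0.21 for ITGB3, -0.33 for GP9, -0.33 for TUBB1 and -0.05 for SELP. Among the marker genes of other cell types, JCHAIN (plasma cells, log2FC 0.59) and PAX5 (B cells, -0.51) were called by edgeR over all 12 heifers. The other measured genes of their lists, XBP1 (-0.02) and CD79A (-0.15), were not called, nor was PRF1 (-0.40) or any other marker gene. Neither JCHAIN nor PAX5 passed adjustment over all genes. In bulk RNA, fewer cells of a type and less RNA per cell cannot be told apart.

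Over the 12 heifers, Pearson's r between log2 CPM and the log2 platelet sum was 0.96 for RAB27A (rho 0.84), 0.95 for SEC14L5 (rho 0.94) and 0.89 for RAB27B (rho 0.80). Without fertile heifer 6 these were 0.93, 0.93 and 0.80, and without the 2 heifers farthest from the median they were 0.89, 0.90 and 0.75. Within the fertile group r was 0.97, 0.94 and 0.94 and within the subfertile group 0.96, 0.94 and 0.70 (n = 6 each). The same genes also went with T cell and PRF1 transcripts. With the T cell sum, r was 0.83 for RAB27A (rho 0.85), 0.75 for SEC14L5 (rho 0.65) and 0.63 for RAB27B (rho 0.48), and 0.76, 0.65 and 0.43 without fertile heifer 6. Within the fertile group r with the T cell sum was 0.87, 0.58 and 0.56. Within the subfertile group it was 0.84, 0.97 and 0.83, which for SEC14L5 and RAB27B was above the r with the platelet sum. With PRF1, r was 0.71, 0.72 and 0.66 in that order of genes, and 0.55, 0.58 and 0.46 without fertile heifer 6. The T cell sum was lowest in subfertile heifer 3 (603 CPM), subfertile heifer 1 (606 CPM) and fertile heifer 1 (694 CPM), which were also the lowest in RAB27A. With the plasma cell sum r was -0.76 for RAB27B, -0.68 for SEC14L5 and -0.41 for RAB27A. Without fertile heifer 6 these were -0.69, -0.57 and -0.13. Within the fertile group they were -0.96, -0.95 and -0.71, and within the subfertile group -0.46, -0.26 and 0.04. With the B cell sum r was between 0.39 and 0.61, and with the neutrophil and monocyte sums between -0.39 and -0.15. Without fertile heifer 6, r with the neutrophil sum was between 0.10 and 0.31 and with the monocyte sum between -0.12 and 0.08. That with the B cell sum was then between 0.26 and 0.59. The part of platelet, T cell or other cell transcripts in the group differences of these genes was not tested.

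**Figure D4:**
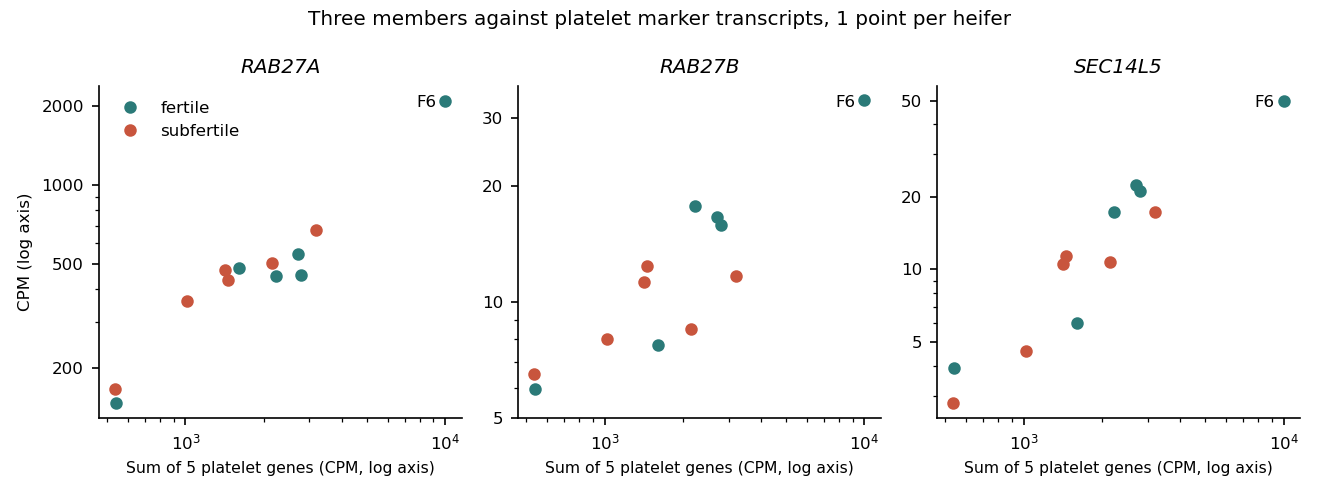
CPM of RAB27A, RAB27B and SEC14L5 against the summed CPM of 5 platelet genes, both on log axes, with 1 point per heifer coloured by group and fertile heifer 6 marked F6. In each panel fertile heifer 6, with a platelet sum of 10000.6 CPM, lies at the upper right, and heifers of both groups lie along the same rise.

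An r of at least 0.7 with the platelet sum was found for 9 of the 45 members: RAB27A, SEC14L5, VPS4A, RAB27B, ARL2, RAB11B, VPS28, RAB2A and VAMP8. Among all genes tested outside the platelet list the share was 9.23%. Without fertile heifer 6, RAB2A had 0.49, while ARL6IP4 (0.73) and VPS26B (0.77) reached 0.7. An r of -0.7 or less was found for SEC61A2 (-0.85), ARL1 (-0.73), ARL6IP6 (-0.71) and STX12 (-0.70), 4 of the 45 members, and for 5.64% of all genes. This list grew without fertile heifer 6, although STX12 left it (-0.63). RAB29 (-0.77), RAB39A (-0.73), SEC24A (-0.73), VAMP7 (-0.85), VPS26A (-0.70), VPS35 (-0.71) and VPS54 (-0.71) then also lay at -0.7 or less. The shares of all genes are those over the 12 heifers. Since 41 members were listed through co-expression in these heifers, these shares are descriptions and were not tested. VPS33B had an r of 0.11 with the platelet sum (0.33 in fertile and 0.90 in subfertile heifers).

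Pairs of members are described next. Of the 45 members, 41 were listed through co-expression in these same heifers, so the share of strong pairs is not independent of the listing. It was not tested. Of the 990 pairs of members, 10 (1.01%) had an absolute r of at least 0.9 over the 12 heifers, 8 positive and 2 negative, beside 0.221% of all pairs of genes tested. The strongest was ARL2 with RAB11B (r = 0.97, rho 0.97), followed by RAB27B with SEC14L5 (r = 0.94, rho 0.92), SEC61B with SNX14 (r = -0.93), ARL6IP6 with VPS35 (r = 0.92) and RAB29 with VPS35 (r = 0.91). RAB27A and RAB27B had r = 0.84 (rho 0.58), which was 0.68 without fertile heifer 6. Among partners in known complexes or steps, VPS28 and VPS4A had r = 0.84, SEC23A and SEC24A of the COPII inner coat 0.65, and VPS52 and VPS54 of GARP -0.01. The vesicle SNAREs VAMP7 and VAMP8 had r = -0.86 (rho -0.87).

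A single axis held 45.0% of the variance of the 45 members after each was standardized. No such share was computed for other genes, and 41 members were listed through co-expression in these heifers. The 45.0% is therefore a description and not a trait shown to be particular to the members. ARL2, RAB11B, VPS28 and SEC61B were highest where ARL6IP6, SEC24A, VPS35 and RAB29 were lowest, with r to the axis between 0.89 and 0.96 for the first 4 and between -0.91 and -0.87 for the others. Subfertile heifer 1 (-0.55), fertile heifer 1 (-0.44) and subfertile heifer 3 (-0.31) lay at one end, and fertile heifer 6 (0.42) and subfertile heifer 5 (0.33) at the other. Both ends held heifers of both groups.

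**Figure D5:**
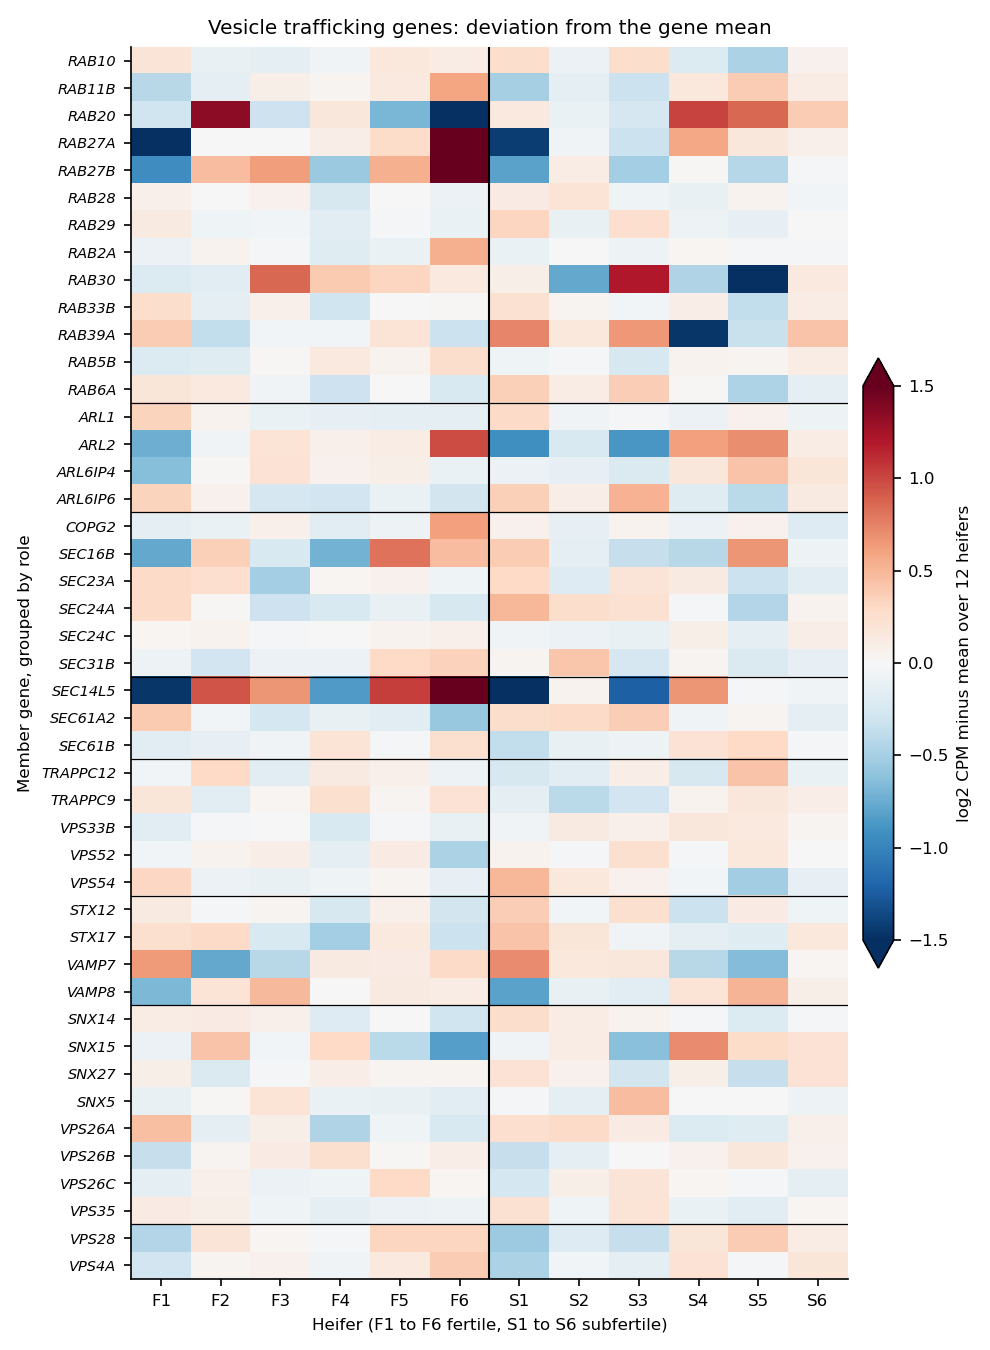
Deviation of log2 CPM from each member's mean over the 12 heifers (colour, cut at 1.5 in each direction), with members in rows by role and heifers in columns (F fertile, S subfertile). Fertile heifer 1 and subfertile heifer 1 share a pattern across many members, low in RAB27A, RAB27B, SEC14L5, ARL2 and VPS28, and fertile heifer 6 shows the reverse for these genes.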

How the data were processed

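The authors extracted RNA in a single batch, sequenced strand-specific libraries in a single run, mapped reads with STAR 2.7.5 to ARS-UCD1.3 and deposited raw counts per Ensembl gene, without normalization; the strand column taken is not stated. Symbols were matched by Ensembl identifier through the study's supplementary tables. Members and lists were chosen with earlier results of these data known.

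Genes were kept with filterByExpr given the groups (minimum count 10), scaled by TMM and tested with edgeR 4.0.16 in R 4.3.3, with group as the only term and Benjamini-Hochberg adjustment over 13012 genes. Log2 CPM used a prior count of 2. Permutation tests were exact and two-sided, over all 924 assignments of heifers. On simulated data with the means and library sizes of this comparison (13012 genes), 76 of 100 genes changed by 0.75 and 100 of 100 changed by 2 (log2) were called, and 289 of 12812 unchanged genes. The simulated counts were drawn for each gene separately, without the variation that genes share between these heifers. In the real data 182 genes were called in all, so the simulated shares need not hold for the members.

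Genes given with full values are the 3 smallest P in each direction, the smallest P in each role, the 2 widest and 2 narrowest spreads, RAB27A, RAB27B, VPS26A, VPS26B, VPS26C, VPS35, STX17 and VPS52. Other members with short values were singled out after their values were seen. Alternatives were DESeq2 1.42.0, voom with limma 3.58.1, RLE or library-size scaling, 2 further filters, a model with the reproductive tract score, a prior count of 0.5, and leaving out each heifer.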

Additional observations from a re-analysis of the deposited data

Results flagged for a closer look

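Among the values of each member within each group of 6 heifers, a value was singled out when its gap to the nearest other heifer was larger, as a part of the group's range, than the critical value of Dixon's test for 6 samples, which chance alone does in about 1 in 20 groups. This happened in 6 of 90 groups, where 4.5 would be reached by chance. In 3 of the 6 the heifer was fertile heifer 6: RAB27A stood at 2083 CPM, COPG2 at 94.5 CPM and RAB2A at 127 CPM. The others were VPS54 in fertile heifer 1 (67.8 CPM), ARL1 in subfertile heifer 1 (46.1 CPM) and SNX5 in subfertile heifer 3 (147 CPM). Fertile heifer 6 was also far from the other fertile heifers in the members' share of the library (0.470%) and in the summed CPM of the 5 platelet genes (10000.6).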

How the results depend on the processing

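The number of members past both thresholds, 0 with edgeR, was 1 (RAB27B) with DESeq2, with RLE size factors, with library size alone and with every gene of at least 1 count kept, and it was 0 with voom and with the reproductive tract score in the model. It was also 0 with a minimum of 10 CPM in 9 libraries, but that minimum left 36 members and removed RAB27B and SEC14L5, so they were not tested there. With each heifer left out in turn it ranged from 0 to 2 (RAB27B and SEC14L5, without fertile heifer 1 or 4). RAB27B had log2FC of -0.74 (DESeq2, RLE), -0.71 (library size) and -0.73 (every gene) in those fits. The count over all genes, 182, was 624 with every gene of at least 1 count kept and 37 with the 10 CPM minimum, where 19434 and 8312 genes were tested, and from 118 (without fertile heifer 6) to 365 (without fertile heifer 1) with heifers left out; the cause was not tested. The median log2FC of members ranged from -0.016 to 0.038 (without subfertile heifers 1 and 5) with heifers left out, and the count of other pathway genes stayed 0 in each alternative. Signs reversed for RAB27A (0.065 without fertile heifer 6, from -0.88 without fertile heifer 1), for VPS26C (0.019 without fertile heifer 5 and 0.0035 without subfertile heifer 1, from -0.089 without subfertile heifer 3) and for SNX5 (-0.0076 without subfertile heifer 3, up to 0.14 without fertile heifer 3). ITGA2B of the platelet genes, refitted without fertile heifer 6 after the data were seen, had 0.011. The other members given with full values kept their sign in each alternative that tested them, while among the rest SEC16B (0.07) and SNX27 (-0.01) changed sign with voom and VAMP7 (0.01) with library size alone, and these and other members also did with single heifers left out. No exact permutation P crossed 0.05 with a prior count of 0.5. Scaling moved the median of all genes by less than 0.1. No paired analysis was possible because the labels give no replicate numbers, and heifers are numbered in accession order only.

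With 6 heifers per group, the interval excluded differences of 0.5 for 31 of the 45 members. Counts under 100 in every library limit RAB20, RAB30, RAB39A and SEC16B. Gene names cover part of each family and of each marker list, so members and markers outside the tables were not analysed here, nor were the proteins.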
